A study of Rattus norvegicus with 9 samples.

Results

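The glutathione S-transferases (GSTs) of rat liver were examined, with the placental form Gstp1 at their head. The genes were the rows of the deposited table named Gstp1, Gsta1, Gsta2, Gsta3, Gsta4, Gstm1, Gstm2, Gstm3, Gstm4 or Gstt1. Of these 10 names, 8 had a row among the 32883 genes of the table, and Gsta1 and Gstm2 were not analysed here. The rows were taken by name, with earlier results of these data known. In the RefSeq table Gsta3 is also an older symbol of Gsta1, Gsta2 of Gsta5, Gstm4 and Gstm3l of Gstm3, and Gstm3 of Gstm5 and Gstm7. Rows with these names, Gsta3 and Gstm3 among them, may therefore stand for other genes than the current ones.

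RNA-seq of liver from 9 male Sprague-Dawley rats was used, with 3 rats in each of 3 groups. The normal control rats (N1, N3 and N12) were given normal feed. The DEN model rats (M13, M17 and M24) received weekly intraperitoneal 0.01% diethylnitrosamine, a liver carcinogen, over 16 weeks, and the PZH administration rats (G27, G28 and G42) received the same DEN plus Pien-Tze-Huang, a traditional Chinese medicine. The treatment label of the DEN model samples reads PZH as well, so these rats were grouped by their titles. The dose of PZH and the week of collection of the sequenced rats are not given in the labels, and neither are the ages.

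GSTs join the tripeptide glutathione to reactive electrophiles, which can then be exported from the cell and broken down to mercapturates. The cytosolic enzymes fall into classes, of which alpha (Gsta), mu (Gstm), pi (Gstp) and theta (Gstt) are represented here. Adult rat hepatocytes carry mainly alpha and mu enzymes, whereas Gstp1 is scarce in them, is present in bile duct cells, and is the classical marker of enzyme-altered preneoplastic lesions in rat hepatocarcinogenesis. Many GST genes are induced through Nrf2, which Keap1 holds back and which binds antioxidant response elements with small Maf partners.

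The promoter sequences of the 3 GSTs with the highest FPKM among the 8 in DEN model rats are shown. The Gstp1 promoter differs from the other 2 in the letters searched, which was the reason to show these 3 sequences. Each runs from 250 bases before to 50 bases after the gene start, 5′ to 3′ on the gene's strand, and comes from RefSeq on the build GRCr8. Capitals mark the letters TGACTCA, an AP-1 type motif, or TGACNNNGC, an antioxidant response element core, read on either strand. The windows are chr1:210769656-210769955 on the minus strand for Gstp1, chr2:198343334-198343633 on the minus strand for Gstm1 and chr8:88077043-88077342 on the minus strand for Gsta2.
Gstp1: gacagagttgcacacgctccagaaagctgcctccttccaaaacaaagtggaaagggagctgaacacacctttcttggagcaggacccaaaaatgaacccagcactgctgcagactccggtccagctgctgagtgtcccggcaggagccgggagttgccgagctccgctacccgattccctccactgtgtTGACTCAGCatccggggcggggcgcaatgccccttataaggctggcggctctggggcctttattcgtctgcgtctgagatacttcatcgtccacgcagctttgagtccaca
Gstm1: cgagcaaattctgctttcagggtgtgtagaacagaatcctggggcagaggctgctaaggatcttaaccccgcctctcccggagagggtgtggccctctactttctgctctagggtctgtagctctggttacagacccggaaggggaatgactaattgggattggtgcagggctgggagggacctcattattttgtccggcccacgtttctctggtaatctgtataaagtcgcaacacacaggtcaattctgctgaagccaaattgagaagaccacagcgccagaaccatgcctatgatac
Gsta2: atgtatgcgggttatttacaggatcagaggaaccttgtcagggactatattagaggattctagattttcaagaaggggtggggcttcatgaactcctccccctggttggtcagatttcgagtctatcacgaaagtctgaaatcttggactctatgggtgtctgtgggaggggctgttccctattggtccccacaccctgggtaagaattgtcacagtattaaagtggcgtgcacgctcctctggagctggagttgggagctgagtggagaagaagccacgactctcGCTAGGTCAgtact
In Gstp1 both motifs overlap in the single run TGACTCAGC, whose first base lies 61 bases before the start. Gsta2 holds TGACNNNGC on the opposite strand, beginning at base 37 after the start, and Gstm1 holds neither motif. Across all 33469 windows of this length, 12.1% hold TGACNNNGC and 4.63% hold TGACTCA. Of the 8 GSTs with a row, 5 matched a RefSeq window whose gene has no older symbol that names another row of the file. The remaining windows, of Gsta4 and Gstm4, hold neither motif. The names Gsta2 and Gstm4 are themselves older symbols of Gsta5 and Gstm3, so these windows may not belong to the rows so named. Among the other listed genes, Gsto1 also holds TGACTCA, and Gstz1 and Gstcd hold TGACNNNGC. Of the genes with ambiguous symbols, Gstm5 holds both motifs, and Gstm7, Gsta1 and 1 window of Gsta3 hold TGACNNNGC. The other windows of listed GST and MAPEG genes hold neither. A match of letters is a description and not a binding site.

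Sequencing depth ran from 14922973 to 27161496 counts per rat, with G27 deepest. Libraries of a group correlated with Spearman's rho of 0.948 to 0.982 across genes. Levels are CPM, counts scaled to library size and by TMM factors, which were 0.731 to 0.799 in normal, 1.21 to 1.58 in DEN model and 0.863 to 0.941 in PZH administration rats. Scaling by library totals alone instead shifted the median log2 change of all genes to 0.89 in DEN model against normal control and to -0.67 in PZH administration against DEN model. The livers carried hepatocyte markers, which summed to 158077 to 172538 CPM in normal livers. They summed to 33389 to 77856 CPM in DEN model and 129336 to 172596 CPM in PZH administration livers. In bulk liver, fewer cells of a type and less RNA per cell cannot be told apart.

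Gstp1 (ENSRNOG00000018237, 1:219291679-219294147 as the file gives it) was measured at 14.8, 12.1 and 17.01 CPM in the normal control rats N1, N3 and N12. In the DEN model rats M13, M17 and M24 it reached 1033, 1505 and 1384 CPM. In the PZH administration rats it stood at 252 CPM in G27, 758 CPM in G28 and 731 CPM in G42. Each group was separate from the others, with normal lowest, DEN model highest and G27 well below the other PZH administration rats. Gstp1 rose 90.6-fold in the DEN model over normal control (log2 fold change 6.50, SE 0.34, 95% interval 5.72 to 7.28, edgeR quasi-likelihood test, adjusted p = 2.03e-05). With each rat left out in turn the log2 value stayed between 6.38 and 6.65.

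Against the DEN model, Gstp1 in PZH administration rats had a log2 fold change of -1.16 (SE 0.42, 95% interval -2.13 to -0.19), which corresponds to a level 2.23-fold lower. All 3 PZH administration rats lay below all 3 DEN model rats. The edgeR test did not pass after adjustment (unadjusted p = 0.0248, adjusted p = 0.0901). DESeq2 put the same difference at -1.14 with an adjusted p of 0.0201, and over 13 alternative settings the adjusted p of Gstp1 ran from 0.0114 to 0.197 and passed in 2. Without G27 the log2 value was -0.79 (edgeR adjusted p = 0.0939). Against normal control, Gstp1 was 39.9-fold higher in PZH administration rats (log2 5.32, SE 0.45, edgeR adjusted p = 0.0021).

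**Figure D1:**
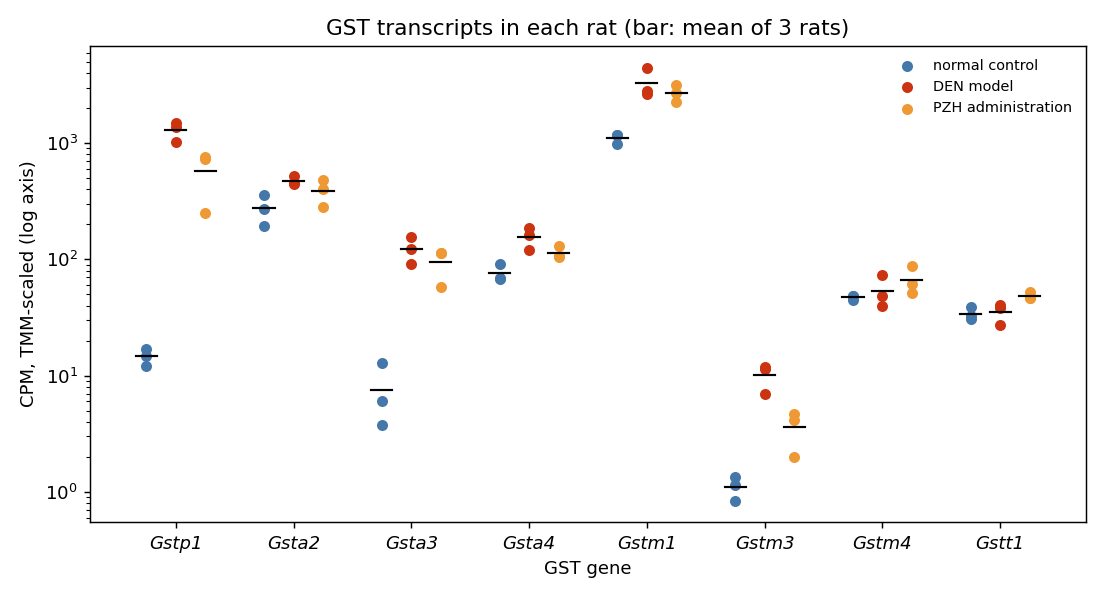
Level of each of the 8 measured GST genes in each rat, in TMM-scaled CPM on a log axis, with points for rats coloured by group and a bar at the mean of 3 rats. Gstp1 runs from 12.1 to 17.01 CPM in normal control rats and from 1033 to 1505 CPM in DEN model rats, with PZH administration rats between them.

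Among the 8 GSTs, 6 rose in the DEN model against normal control and the other 2 did not pass the test, while 45.8% of all 14255 genes tested were called and 25.3% were called higher. The median log2 change of the 8 was 1.32, beside 0.03 over all genes. The 6 that rose also lay above all normal rats in every DEN model rat, as did 31.3% of all genes tested. Under the study's own thresholds, an absolute log2 change above 2 with an unadjusted P under 0.001, 3 of the 8 were called, beside 12.3% of all genes. These 3 were Gstp1, Gsta3 and Gstm3, whose enzymes belong to the pi, alpha and mu classes. Scaled by library totals, all 8 were called higher and 89.5% of all calls were higher, beside 55.3% with TMM factors.

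Among the mu class genes, Gstm1 (2:210803869-210809306), a major mu enzyme of rat liver, was the most abundant of the GSTs per length in every group. Its CPM was 993, 1172 and 1178 in N1, N3 and N12, then 2669.7, 4474 and 2806 in M13, M17 and M24, and 2249.9, 2694 and 3191 in G27, G28 and G42. Both DEN-treated groups lay above all normal rats and overlapped each other. Gstm1 rose 3.01-fold in the DEN model (log2 1.59, SE 0.35, edgeR adjusted p = 0.00653). It was 2.44-fold higher in PZH administration than in normal control rats (edgeR adjusted p = 0.0182), a call that was lost without N1, N12, G28 or G42 (adjusted p of 0.0511 to 0.0863). Between PZH administration and DEN model its log2 value was -0.27 (95% interval -1.05 to 0.51, edgeR adjusted p = 0.606).

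The row Gstm3 (2:210685197-210688272), another mu gene with an ambiguous symbol, was the lowest of the 8. Its levels were 1.33, 0.839 and 1.14 CPM in N1, N3 and N12, from 17, 10 and 15 counts. They were 11.8, 6.98 and 11.5 CPM in M13, M17 and M24 and 2.004, 4.10 and 4.70 CPM in G27, G28 and G42. No group overlapped another. Gstm3 rose 9.19-fold in the DEN model (log2 3.20, SE 0.34, edgeR adjusted p = 2.96e-04) and was the 1 GST of the 8 that fell in PZH administration against DEN model (log2 -1.48, SE 0.37, edgeR adjusted p = 0.0292). That call was lost without M13, M24, G28 or G42, with adjusted p of 0.0503 to 0.111 and log2 values of -1.70 to -1.36. Against normal control the PZH administration rats had a log2 value of 1.70 (edgeR adjusted p = 0.0681), which passed without G27 (1.98, adjusted p = 0.0205).

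Gstm4 (2:210833884-210839295) did not pass in any of the 3 comparisons. Its CPM ran from 45.0 to 48.7 in normal control, 39.8 to 73.2 in DEN model and 51.8 to 86.9 in PZH administration rats. The log2 value in the DEN model was 0.20 (95% interval -0.32 to 0.73), and its sign turned without M17. Mu genes lie close together and resemble each other in sequence, and how reads shared between them were counted is not given in the sources used here, so the split between Gstm rows is uncertain.

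Among the alpha class genes, Gsta2 (8:85640055-85645718) encodes a main alpha subunit of hepatocytes. It had 194, 360.1 and 269.7 CPM in N1, N3 and N12, then 451, 446 and 517 CPM in M13, M17 and M24, and 284, 478 and 402 CPM in G27, G28 and G42. The DEN model rats lay above all normal rats, and the PZH administration rats overlapped both groups. Gsta2 rose 1.73-fold in the DEN model (log2 0.79, SE 0.28, edgeR adjusted p = 0.0455), and the call was lost without N1, N12, M13 or M24 (adjusted p of 0.0971 to 0.147).

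Gsta4 (8:85497557-85518879), whose enzyme favours 4-hydroxynonenal, a product of lipid peroxidation, had 68.1, 68.5 and 91.4 CPM in N1, N3 and N12. It had 186, 121 and 163 CPM in M13, M17 and M24 and 104, 129 and 106 CPM in G27, G28 and G42. Gsta4 rose 2.08-fold in the DEN model (log2 1.06, SE 0.23, edgeR adjusted p = 0.00594). PZH administration rats all lay above normal rats, but neither of their comparisons passed, with log2 values of -0.45 against DEN model (edgeR adjusted p = 0.185) and 0.58 against normal control (edgeR adjusted p = 0.148).

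The row Gsta3 (9:27402381-27417023) had 6.01, 12.8 and 3.74 CPM in N1, N3 and N12. It had 123, 155 and 90.4 CPM in M13, M17 and M24 and 58.4, 115 and 112 CPM in G27, G28 and G42. Every rat given DEN lay above every normal rat. The row rose 16.6-fold in the DEN model (log2 4.05, SE 0.45, edgeR adjusted p = 3.48e-04) and was 12.6-fold higher in PZH administration than in normal control rats (log2 3.65, edgeR adjusted p = 0.00581). It lies inside a second row, LOC108348061 (9:27368272-27452902), which the file also describes as alpha-3. LOC108348061 held 882 ± 117 CPM in normal control, 714 ± 194 CPM in DEN model and 1105 ± 109 CPM in PZH administration rats (mean ± SD, n = 3), and its log2 value in the DEN model was -0.29 (edgeR adjusted p = 0.455). Summed over the 2 rows, a count chosen after the values were seen, the change of Gsta3 in the DEN model was -0.07 (edgeR adjusted p = 0.863). Whether the rise of the Gsta3 row was a rise of alpha-3 transcripts as a whole is uncertain, also because its symbol is ambiguous.

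Gstt1 (20:13799102-13816526), the theta class gene, did not pass in any comparison. It had 39.0, 30.7 and 32.7 CPM in N1, N3 and N12, and 38.1, 40.6 and 27.4 CPM in M13, M17 and M24. In G27, G28 and G42 it had 46.7, 52.1 and 46.5 CPM, each above every rat of the other 2 groups. The log2 value in PZH administration was 0.48 against DEN model (95% interval 0.04 to 0.92, edgeR adjusted p = 0.116), turning to -0.17 when scaled by library totals, and 0.51 against normal control (95% interval 0.11 to 0.91, edgeR adjusted p = 0.154).

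Between the DEN-treated groups, 1 of the 8 GSTs fell in PZH administration rats, Gstm3, and the other 7 did not pass, while 19.1% of the 14272 genes tested were called, 8.72% higher and 10.3% lower. At an unadjusted p under 0.05, 2 of the 8 were lower and 1 was higher, while 34.9% of all genes were under that p. DESeq2 called 2 lower, and 6 were called lower when libraries were scaled by their totals, where 8.89% of all calls were higher, beside 45.7% with TMM factors. The median log2 value of the 8 was -0.31, beside 0.01 over all genes. In PZH administration against normal control, 3 of the 8 were higher, namely Gstp1, Gsta3 and Gstm1, beside 5.21% of the 13348 genes tested called and 4.07% called higher. The median was 0.93, beside -0.02 over all genes. The 3 comparisons share their control or treated rats, so their counts are not independent.

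**Figure D2:**
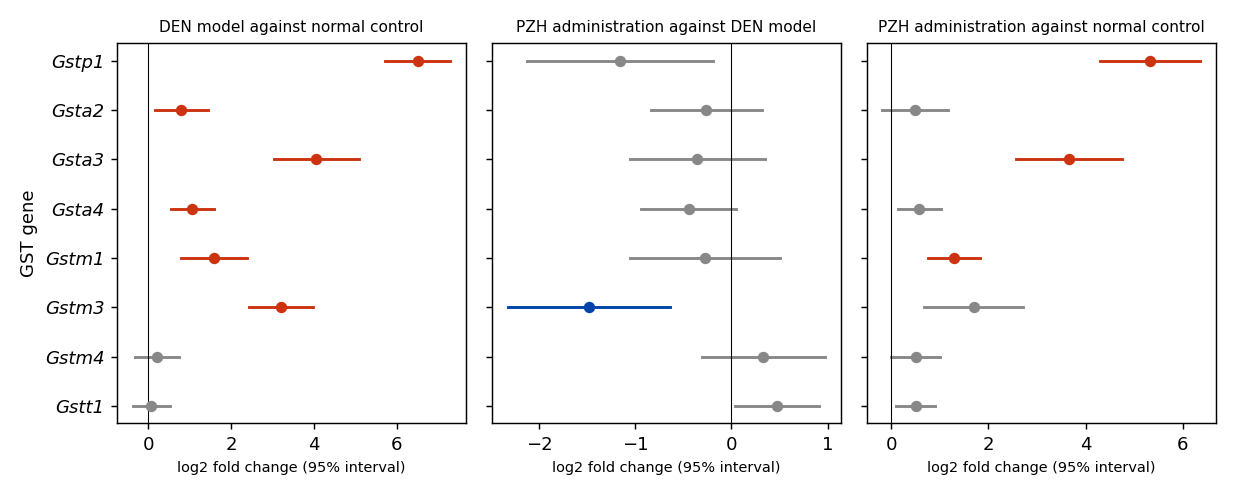
Log2 fold change of the 8 GST genes in the 3 comparisons named above each panel, with lines for 95% intervals and with red, blue and grey for higher, lower and not called by edgeR at an adjusted p under 0.05. In the DEN model panel 6 genes are red, in the middle panel Gstm3 alone is blue, and in the last panel Gstp1, Gsta3 and Gstm1 are red.

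Per length, on the deposited FPKM scale, the make-up of the 8 GSTs shifted towards Gstp1. Shares within a rat do not depend on the scaling between libraries. Gstp1 made up 1.29% ± 0.291 of the summed FPKM of the 8 in normal control rats, 30.7% ± 3.22 in DEN model rats and 18.3% ± 6.27 in PZH administration rats (mean ± SD, n = 3 each). By rat the share was 1.49%, 0.954% and 1.42% in N1, N3 and N12, then 29.0%, 28.7% and 34.4% in M13, M17 and M24. It was 11.2% in G27, 23.0% in G28 and 20.7% in G42, so that no group overlapped another. Gstm1 held 66.9% ± 2.79 in normal control, 52.8% ± 5.42 in DEN model and 62.7% ± 6.34 in PZH administration rats. Gsta2 held 22.5% ± 4.31, 10.9% ± 2.36 and 12.3% ± 1.51 in the same order. A lower share went here with a higher level, since Gstm1 and Gsta2 both rose in the DEN model. With the 21 other listed GST and MAPEG rows in the sum, the Gstp1 share was 0.409%, 22.4% and 10.8% in the same order of groups. Gstm1, Gstm3 and Gstm4 together held 68.8%, 53.6% and 63.7% of the 8, but 21.9%, 38.9% and 36.0% of the wider sum. Gsta2, Gsta3 and Gsta4 together held 27.5%, 15.0% and 16.6% of the 8, but 8.80%, 10.9% and 9.42% of the wider sum. Their lower shares in the DEN model therefore hold only within the 8. The wider sum left out some GST rows, among them LOC108348061 and RGD1307603, a neighbour of Gstp1 described at the end. These 2 held 882 ± 117 and 154 ± 49.6 CPM in normal control rats.

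The order of the 8 by FPKM was Gstm1, Gsta2, Gsta4, Gstt1, Gstm4, Gstp1, Gsta3 and Gstm3 in normal control rats, and no neighbours in that order overlapped. In DEN model rats Gstp1 stood second, at 2406 ± 422 FPKM (n = 3), between Gstm1 at 4133 ± 669 FPKM and Gsta2 at 842 ± 171 FPKM. Only Gstt1 and Gstm4 overlapped as neighbours there. In PZH administration rats Gstp1 was again second, at 698 ± 359.8 FPKM, but it overlapped Gsta2 at 443 ± 127 FPKM, and Gsta3, Gstt1 and Gstm4 overlapped as neighbours. The ratio of Gstp1 to Gstm1 in FPKM was 0.0150 to 0.0216 in normal control, 0.488 to 0.716 in DEN model and 0.162 to 0.408 in PZH administration rats. Together the 8 rows took 0.108% to 0.131% of all counts in normal control, 0.679% to 0.828% in DEN model and 0.264% to 0.441% in PZH administration rats. These percentages rest on library totals. In TMM-scaled CPM the 8 summed to 1361 to 1706, 4562 to 6822 and 3058 to 4681 in the same order, a smaller contrast.

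**Figure D3:**
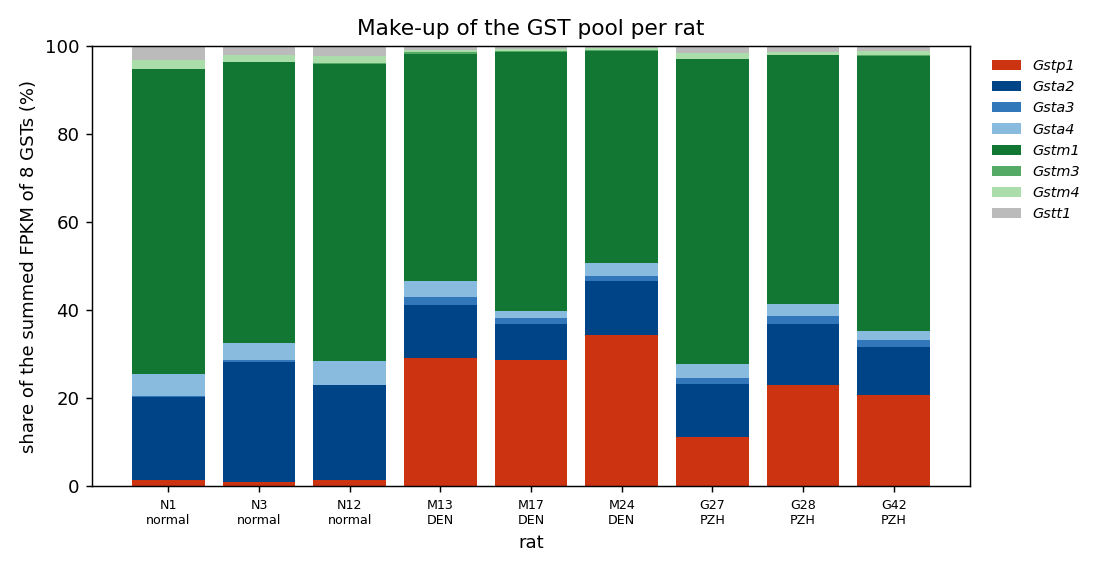
Stacked share of each of the 8 GST genes in their summed FPKM, in percent, with a bar for each rat. The Gstp1 share at the base of the bars is 0.954% to 1.49% in normal control, 28.7% to 34.4% in DEN model and 11.2% to 23.0% in PZH administration rats.

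The other listed GST genes and membrane-bound MAPEG enzymes did not share the direction of the 8. Of 21 such rows 16 could be tested, and in the DEN model 2 rose and 7 fell, beside 20.5% of all genes called lower, with a median log2 value of -0.67. Scaled by library totals, 7 were called higher and 2 lower, so the direction of the moderate ones rests on the scaling. Ltc4s, leukotriene C4 synthase, fell from 23.0, 3.27 and 8.77 CPM to 0.891, 0.792 and 0.249 CPM (log2 -4.15, SE 0.75, edgeR adjusted p = 0.00279). Gstz1, the maleylacetoacetate isomerase of tyrosine breakdown, fell from 415 ± 61.1 to 67.5 ± 33.6 CPM (log2 -2.60, SE 0.36, edgeR adjusted p = 8.61e-04). Both kept their call with each rat left out.

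Mgst1, an abundant microsomal GST, fell by 1.35 on the log2 scale, from 1758 ± 323 to 682 ± 342 CPM. Mgst3 fell by 1.33 and Gstm7 fell by 1.11 on the same scale. Gsto1 fell by 0.73 and Gstt2 fell by 0.61, and both turned positive, at 0.10 and 0.23, when scaled by library totals. The calls of Mgst1, Gstm7, Gsto1 and Gstt2 were each lost without N12, M13 or M24, those of Gsto1 and Gstt2 also without N1, that of Mgst1 also without N3, and that of Mgst3 without N12. Gstt3, a theta class gene, rose from 88.4 ± 63.9 to 294 ± 39.6 CPM (log2 1.75, edgeR adjusted p = 0.0143), a call lost without N12. Gstcd, which has a GST-like C-terminal domain, rose by a log2 value of 0.86 (edgeR adjusted p = 0.028), lost without N1, N12, M13 or M24. Gsta5, an alpha gene, was higher in all 3 DEN model rats but did not pass (log2 0.67, edgeR adjusted p = 0.0565). Gsta6, Gstm3l, Gsto2, Gstk1, Hpgds and Mgst2 also did not pass, with log2 values from -1.15 for Gstk1 to 1.28 for Gstm3l.

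Of the 16, 4 were higher in PZH administration than in DEN model rats, beside 8.72% of all genes called higher, and the other 12 did not pass. Gstz1 had a log2 value of 1.88 (edgeR adjusted p = 0.0167), Gstm7 of 1.14, Gstt2 of 0.97 and Gstt3 of 0.78. Scaled by library totals, 1 was called higher and 4 lower. The calls of Gstm7 and Gstt3 were lost without M13, M24, G27, G28 or G42, and those of Gstz1 and Gstt2 without M13 or M24. Gstt3 moved the same way in both steps, reaching 496, 447 and 551 CPM in G27, G28 and G42, and it was the 1 gene of the 16 called against normal control (log2 2.47, edgeR adjusted p = 0.0195, lost without N1, N12 or G28). The rows Gstm5, Gstm6l, Gstt4 and Ptges had no counts in any normal or PZH administration rat, and Gstm6l and Gstt4 had none in DEN model rats either. Gstm6 had 77 counts in G27 beside at most 10 in the other rats.

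**Figure D4:**
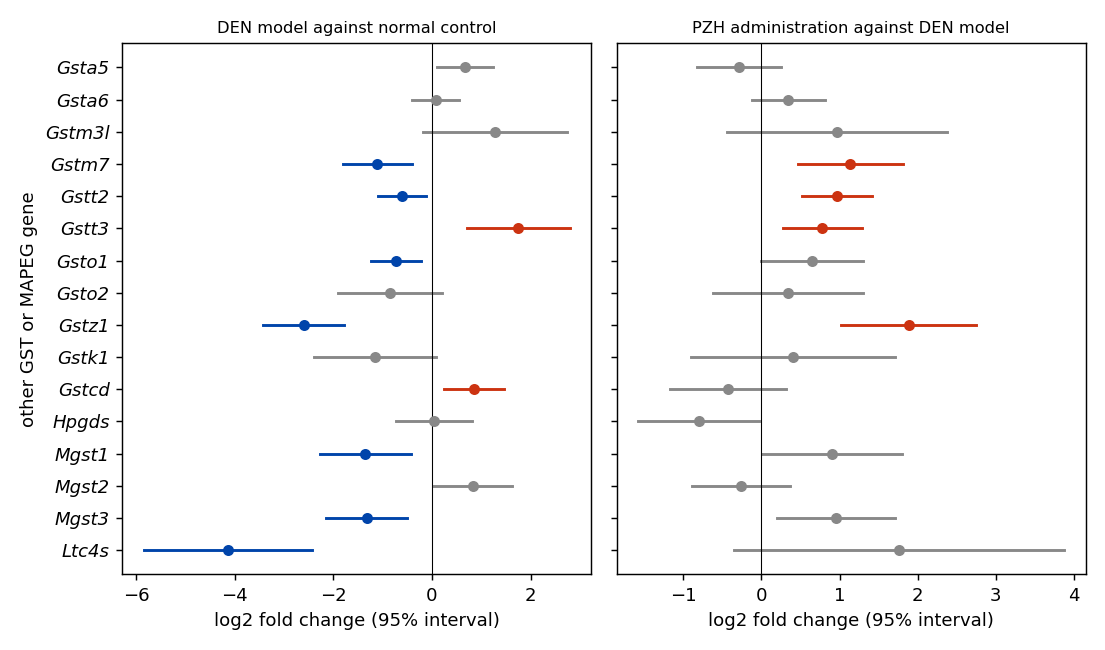
Log2 fold change with 95% intervals of the 16 other GST and MAPEG genes that could be tested, for DEN model against normal control and PZH administration against DEN model, with red, blue and grey for higher, lower and not called. In the first panel 2 genes are red and 7 blue, and in the second 4 are red.

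Genes around the conjugation step were counted from lists of named genes. Beside these counts stand the shares of all genes tested. In the DEN model 25.3% were called higher and 20.5% lower. In PZH administration against DEN model 8.72% were called higher and 10.3% lower. Of 8 genes of glutathione supply, 5 rose and 2 fell in the DEN model. Gclm and Gclc, the subunits of the rate-limiting ligase of glutathione synthesis, rose by log2 values of 2.42 (SE 0.22) and 1.98 (SE 0.25). Slc7a11, the cystine transporter, rose from 0, 0.168 and 0.534 CPM to 451, 67.1 and 503 CPM, and in G27, G28 and G42 it was at 5.89, 59.5 and 26.6 CPM, lower than in the DEN model (log2 -3.46, edgeR adjusted p = 0.0379, lost without M13, M24, G27, G28 or G42). Cbs and Cth, which make cysteine by transsulfuration, fell by 3.54 and 3.17 on the log2 scale. In PZH administration rats both were higher than in the DEN model, at 2.45 and 2.64, with the Cbs call kept only without M17 and the Cth call lost without M13 or M24. The median of the list was 1.16.

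For export and mercapturate steps, 5 of 10 tested genes rose in the DEN model and 3 fell, beside 45.8% of all genes called. Abcc3, a conjugate exporter of the sinusoidal membrane, rose 4.94 on the log2 scale (SE 0.23), from 3.19 ± 0.635 to 97.0 ± 14.1 CPM. Ggt1, gamma-glutamyltransferase, which takes the glutamyl group off conjugates and glutathione, rose 6.48 (SE 0.57), and the exporters Abcc1 and Abcc4 rose 2.76 and 2.67. Anpep, Acy1 and Acy3, which act on later peptide and acetyl groups, fell by 0.75, 1.12 and 1.53, but none of the 3 was called lower when scaled by library totals, where Anpep turned to 0.10. The calls of Anpep and Acy1 were lost without N12, M13 or M24. In PZH administration against DEN model, Ggt1 fell by 1.42, a call lost without M13, G27 or G28, and Abcc1 fell by 1.16, lost without M13 or M24. The other 9 of 11 did not pass, so 18.2% were called, near the 19.1% of all genes tested.

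Among Nrf2 targets outside the GSTs, 10 of 14 rose in the DEN model, beside 25.3% of all genes, with a median log2 value of 1.44. Nqo1, a quinone reductase, rose 3.77 (SE 0.37), Akr7a3, an aflatoxin aldehyde reductase, 3.81 (SE 0.44) and Ugdh, which makes UDP-glucuronate, 2.06 (SE 0.22). Against the DEN model, 4 of 14 fell in PZH administration rats, among them Nqo1 by 1.03, beside 10.3% of all genes called lower. Akr7a3 had a log2 value of -0.07 whose sign changed with the rat left out. The Nqo1 call was lost without M13, M24, G27, G28 or G42. The transcript of Nfe2l2, which encodes Nrf2, did not pass in the DEN model (log2 0.49, edgeR adjusted p = 0.102), nor did that of Keap1 (log2 -0.54, edgeR adjusted p = 0.082).

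Of 18 tested regulators of GST transcription, 7 fell in the DEN model and 1 rose, or 6 and 3 when scaled by library totals. With TMM factors 44.4% of the 18 were called, near the 45.8% of all genes tested. The 7 included Cebpb by 1.99, Rxra by 1.94 and Jun by 1.78 on the log2 scale, with Cebpa, Nr1i2 and Hnf4a besides. These encode liver-enriched factors, nuclear receptors and an AP-1 subunit. Maff, a small Maf partner of Nrf2, was the 1 that rose (log2 1.72, SE 0.36). Jun, Cebpa and Hnf4a were higher in PZH administration than in DEN model rats, at 1.00, 1.29 and 1.11. The Cebpa call was lost without M13 or M24, that of Jun also without G27 or G28, and that of Hnf4a without M13, M24, G27, G28 or G42.

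Other markers of preneoplastic lesions and rat hepatoma moved with Gstp1 in the DEN model, where 7 of 9 rose, beside 25.3% of all genes. Akr1b10 rose 8.82 on the log2 scale (SE 0.60) and Gpc3, glypican 3, 6.32 (SE 0.50), beside Ggt1 above. Aldh3a1, a tumour-associated aldehyde dehydrogenase, rose from 0, 0 and 0.153 CPM to 98.6, 59.6 and 146 CPM, and was at 24.7, 194 and 53.1 CPM in G27, G28 and G42. Afp did not pass (log2 2.38, edgeR adjusted p = 0.0907), passed without M13 or M17, and had a value of -0.34 without M24. Of the 9, 4 fell in PZH administration against DEN model, beside 10.3% of all genes. Among the 4, Akr1b10 fell by 1.996, Gpc3 by 1.91 and Ggt1 by 1.42. Each of these 4 calls was lost without M13.

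Markers of other cell types were counted beside Gstp1, and those of cholangiocytes and of stellate cells and fibroblasts were higher in the DEN model. Over all genes tested, 25.3% were called higher in the DEN model, and 10.3% lower in PZH administration against DEN model. Against normal control 4.07% were called higher in PZH administration rats. All 8 cholangiocyte markers rose in the DEN model, their summed level running from 30.6 to 43.0 CPM in normal control and 271 to 789.9 CPM in DEN model rats. In PZH administration rats it ran from 100.1 to 133 CPM, 7 of the 8 were lower than in the DEN model, and 6 of 7 were higher than in normal control. Without M13 or without M24 only 2 were called lower than in the DEN model, whereas all 8 rises in the DEN model were called with each rat left out. Krt19 and Cftr rose 7.44 (SE 0.85) and 7.004 (SE 0.26) on the log2 scale, and Krt7 rose from 0, 0 and 0.229 CPM to 27.5 ± 25.9 CPM. In TMM-scaled CPM, M17 had the highest Gstp1 and the lowest cholangiocyte sum of the DEN model rats, 1505 CPM beside 271 CPM. That rank of Gstp1 rests on the scaling, since on the FPKM scale M24 was highest, at 2842 FPKM. M24 also had the highest cholangiocyte sum, 789.9 CPM. G27 had the lowest Gstp1 of the PZH administration rats, 252 CPM beside a sum of 100.1 CPM.

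Of 8 stellate cell and fibroblast markers 7 rose in the DEN model, where 25.3% of all genes tested were called higher and 20.5% lower. Their sum went from 267 to 376 CPM to 1144 to 3355 CPM, and it was 654 to 783 CPM in PZH administration rats. Col1a1, Acta2, Col1a2 and Col3a1 rose 5.40, 3.94, 3.16 and 2.62. Of 7 hepatocyte markers Ttr fell by 3.89 and Alb fell by 2.09, the latter lost with any of N1, N3, N12, M13 or M24 left out, and the other 5 did not pass. In PZH administration rats Ttr was higher than in the DEN model (log2 3.50), a call lost without M13. Macrophage markers summed to 428 to 836, 394 to 530.3 and 223 to 516 CPM in the groups in the order above, with Marco and Clec4f lower by log2 values of -2.72 and -1.28 in the DEN model, the Marco call lost without N12, M13 or M24. The other 4 macrophage markers did not pass, with log2 values of 0.57 for Adgre1, 0.53 for Csf1r, 0.50 for Cd68 and -0.11 for Cd163, the list having a median of 0.20. With library totals 3 of the list were called higher and 1 lower, and without N12 these counts were 2 and 1. Endothelial markers summed to 299 to 378, 167 to 294 and 264 to 362 CPM, with Vwf higher at 2.48 and Clec4g, Kdr and Lyve1 lower at -2.10, -1.15 and -0.70, the Lyve1 value turning to 0.14 under library totals and the Kdr call lost without N1, as the Lyve1 call was without N1, N3, N12, M13 or M24. Intestinal markers summed to 189 to 212, 55.8 to 525 and 28.3 to 132 CPM. Cdx1, Lgals4, Gucy2c and Slc15a1 had no counts in normal rats, so the normal sum came from Cdx2 and Cdh17. Against that the sum was lower in M13 and M17, at 92.6 and 55.8 CPM, and higher in M24, at 525 CPM. Of 3 intestinal markers tested in the DEN model 2 rose and 1 did not pass. The 2 were Gucy2c and Slc15a1, at 27.5 ± 14.1 and 24.8 ± 16.9 CPM in DEN model rats. The part of these cell types in the Gstp1 levels was not tested.

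**Figure D5:**
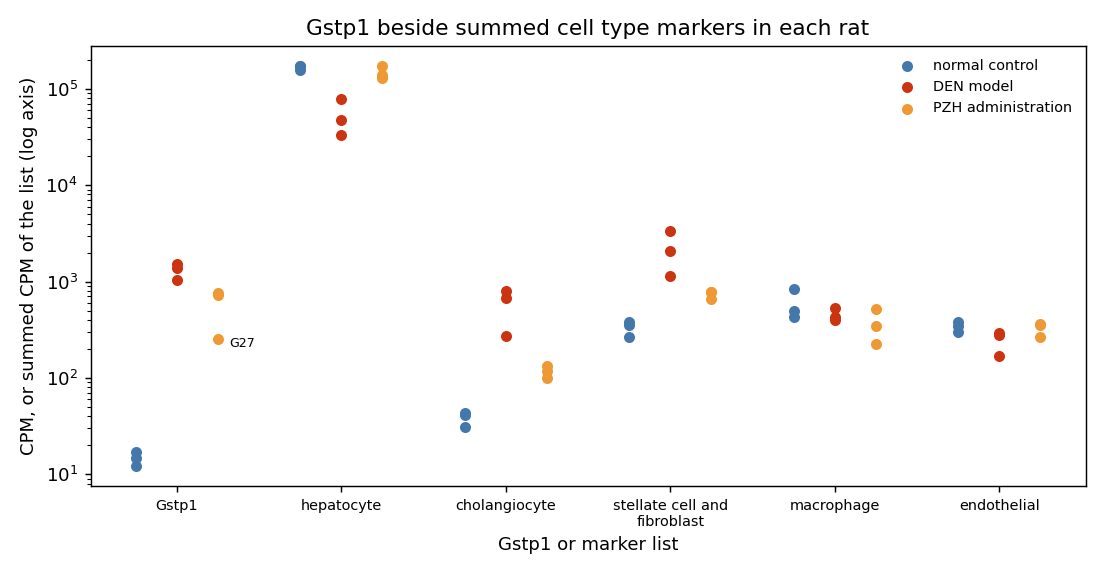
Level of Gstp1 and summed level of 5 marker lists in each rat, in CPM on a log axis, coloured by group. Cholangiocyte markers rise from 30.6 to 43.0 CPM in normal control to 271 to 789.9 CPM in DEN model rats, as Gstp1 does from 12.1 to 17.01 to 1033 to 1505 CPM, while hepatocyte markers are lowest in DEN model rats.

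Across the 9 rats, the genes whose log2(CPM + 1) followed Gstp1 most closely among 11766 genes were Cdk1, Tceal9, Cd276, Car2 and Cftr, with Pearson's r of 0.993 for Cdk1 and 0.990 to 0.991 for the others. Their Spearman's rho was 0.950, 0.883, 0.933, 0.867 and 0.933, which ranked 40, 758, 127, 1010 and 127 among the 11766 genes. Cdk1 is the mitotic cyclin-dependent kinase, Cd276 an immune checkpoint ligand, Car2 a carbonic anhydrase and Cftr a chloride channel of bile ducts. Cdk1 had 0.781, 0.336 and 0.534 CPM in normal control rats, 9.21, 12.1 and 13.3 CPM in DEN model rats and 3.54, 8.97 and 9.11 CPM in PZH administration rats, with G27 again lowest of its group. Among the GSTs, Gstm1 and Gsta3 followed Gstp1 most closely by Pearson's r, both at 0.961, then Gstm3 at 0.905 and Gsta4 at 0.870. By Spearman's rho Gsta5 was highest of the GSTs, at 0.950 (r of 0.837), beside 0.867 for Gstm1 and 0.833 for Gsta3. Gstm4 and Gstt1 had r of 0.356 and 0.316, and at the other end Gstz1 and Ltc4s had -0.805 and -0.849. These 9 points are 3 groups of 3 rats, so the values mostly restate the group differences.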

How the data were processed

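The deposited table holds, for each of 32883 genes, read counts and FPKM of 9 rat liver libraries, mRNA sequenced after RNeasy extraction. Per the labels, the authors processed reads with fastp, HISAT2 2.1.0, StringTie 1.3.3b and edgeR 3.30.3. The role of each tool, the genome build, the annotation release, strand setting and treatment of reads shared by similar genes are not given in the sources used here. Coordinates are those of the file.

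The deposited counts were used for every test, and the FPKM deposited by the authors only for shares and order within a rat. Rats were grouped by their titles. Low genes were removed with filterByExpr, libraries were scaled by TMM, and each pair of groups was compared on its 6 rats with the quasi-likelihood test of edgeR 4.0.16 in R 4.3.3. P-values were adjusted over all tested genes (Benjamini-Hochberg), with calls at an adjusted p under 0.05. The standard error was taken as the log2 fold change over the square root of F. Whether the rats shared litters or cages is not given, so p-values measure the spread between these animals.

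CPM used total counts times TMM factors over the 9 rats. Depth was 14922973 to 27161496 counts per rat, at which 3 counts equal 0.125 to 0.252 CPM. DESeq2 1.42.0, other scalings, other filters, 1 fit over all 9 rats, the study's thresholds and leaving out each rat were tried. Likeness to Gstp1 was Pearson's r on log2(CPM + 1). The edgeR and DESeq2 steps were run on simulated counts with as many genes raised as lowered, which cannot test the choice of scaling. Promoters came from the RefSeq table of GRCr8. Members and gene lists were chosen with earlier results of these data known. Some rows that the file describes as GSTs were on no list and were not named. All measured genes of the lists of GSTs and of other GST and MAPEG genes were named. So were up to 4 genes per other list, those called with the largest change in the DEN model, and the 5 genes most like Gstp1. Genes named besides these, such as Anpep, Acy1, Acy3, Afp, Maff, Gclc, Cebpa, Nr1i2, Hnf4a, Keap1, Nfe2l2, LOC108348061 and RGD1307603, were added after their values were seen. Some listed genes are not reported here by name.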

Additional observations from a re-analysis of the deposited data

How the results depend on the processing

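No paired analysis was possible because the rats carry their own numbers, which no 2 groups share. The rise of Gstp1 in the DEN model and its higher level in PZH administration than in normal control rats passed in each of the 13 alternatives, with log2 values of 6.38 to 7.35 and 5.07 to 5.67. Of 315 alternative values of the 8 GSTs, 277 kept direction and side of the threshold, 12 passed that had not, 19 no longer passed and 7 changed sign. The cause of these changes was not tested.

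With library totals, PZH administration against DEN model gave 6 GSTs called lower and 6252 genes called in all (2722 with TMM). Gstt2, Gsto1, Gsto2, Lyve1, LOC108348061, Anpep and Keap1 turned to 0.23, 0.0982, 0.00457, 0.14, 0.55, 0.10 and 0.30 in DEN model against normal control. In PZH administration against DEN model Gstm4 turned to -0.29, Gstt1 to -0.17, Gsta6 to -0.33, Gsto1 to -0.0193, Gsto2 to -0.32, Gstk1 to -0.14, Cebpb to -0.33, Clec4f to -0.0930, Lyve1 to -0.18, Anpep to -0.36 and Keap1 to -0.20. Against normal control Gstm7 turned to 0.19, Gsto1 to 0.0793 and Keap1 to 0.0910. DESeq2 called 2 GSTs lower in PZH administration against DEN model and 1320 genes against normal control (696 with edgeR). A minimum of 10 counts in every rat called 340 genes there and turned Gstm7 to 0.0313.

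The study's thresholds gave 3 GSTs called higher and 1753 genes in the DEN model (6529 at an adjusted p under 0.05), 0 GSTs lower and 347 genes in PZH administration against DEN model, and 310 genes against normal control. Summing Gsta3 with LOC108348061, an alternative chosen after seeing the data, turned it to -0.0722 and 0.54 in the first 2 comparisons.

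Leaving out single rats, the GSTs called higher in the DEN model numbered 5 to 6, those called lower after PZH 0 to 1 and those higher than normal control 2 to 4. Genes called in all ran from 4724 to 6790, from 271 (without M13) to 3319, and from 207 (without N1) to 1326 (without G27). Among signs that turned, in the DEN model Gsta6 ran from -0.0680 to 0.18, Hpgds from -0.28 to 0.29, Gstt1 from -0.0425 to 0.23, Gstm4 from -0.0828 to 0.39 and Afp from -0.34 to 2.91. In PZH administration against DEN model Akr7a3 ran from -0.25 to 0.35, Aldh3a1 from -1.36 to 0.31, Mgst2 from -0.48 to 0.00353, Gstk1 from -0.0259 to 1.34, Afp from -2.63 to 0.63, Gclc from -0.36 to 0.28 and Nfe2l2 from -0.19 to 0.0278. Against normal control Gstm7 ran from -0.24 to 0.21, Gsto1 from -0.42 to 0.0576, Keap1 from -0.32 to 0.0245 and Gstcd from -0.0122 to 0.61.

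For class shares, pi was Gstp1 alone, alpha was Gsta2, Gsta3 and Gsta4, and mu was Gstm1, Gstm3 and Gstm4. RGD1307603 and LOC108348061 were in neither the classes nor the sums, so these are not shares of whole classes. In percent, with the 21 other listed GST and MAPEG rows in the sum, the shares were 0.409, 22.4 and 10.8 for pi. They were 8.80, 10.9 and 9.42 for alpha and 21.9, 38.9 and 36.0 for mu, with groups in the order normal, DEN and PZH. From raw counts, pi was 0.943 in normal control and 24.1 in DEN model rats, alpha 22.6 in normal control and mu 74.2 and 61.1 in normal control and DEN model rats. At these depths, rows such as Gstm5, Gstm6l, Gstt4 and Ptges could not be tested.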

Other observations

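The neighbour of Gstp1 on chromosome 1, the row RGD1307603 (1:219309592-219312240), which the RefSeq table lists as an older symbol of Gstp3, another pi class gene, moved against Gstp1 in the DEN model. It was picked after its values were seen. Its counts were 1940, 1270 and 2694 in N1, N3 and N12, then 52, 222 and 28 in M13, M17 and M24, and 2097, 384 and 164 in G27, G28 and G42. In CPM it went from 154 ± 49.6 to 4.78 ± 5.40 (mean ± SD, n = 3), a log2 change of -5.01 (SE 0.78, edgeR adjusted p = 0.00145), between -6.49 and -4.29 over the alternatives run. In PZH administration rats it stood at 42.6 ± 41.2 CPM, and the log2 value against DEN model was 3.21 (edgeR adjusted p = 0.0526). That difference passed with DESeq2 (adjusted p = 0.0269), library totals (0.0298), no filter on low counts (0.0450), all 9 rats in 1 fit (0.0275) and without M17 (log2 4.67, adjusted p = 0.0134), and without G27 its log2 value was 2.04 (adjusted p = 0.149). G27, the PZH administration rat with the lowest Gstp1, had the highest RGD1307603 of its group, at 89.4 CPM beside 26.7 CPM in G28 and 11.7 CPM in G42. M17, which had the highest Gstp1 of the DEN model rats in CPM but not in FPKM, also had their highest RGD1307603, at 11.0 CPM.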
